A study of Homo sapiens with 12 samples.

Results

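The genes described here are 9 regulators known from cell reprogramming and from the formation of neurons: SOX4, SOX11, HMGA1, HMGA2, MYC, MYCN, FOXP1, LIN28B and MSI1. They were taken by gene symbol from 2 tables of read counts and are 9 of 17992 genes. Messenger RNA was measured by sequencing in MIO-M1 cells, a human cell line established from Müller glia, the main glial cells of the retina. The labels give the line as wild type, and all libraries were made on day 3 of an siRNA treatment. The siMapk14 group received siRNA against MAPK14, the gene of the kinase p38-alpha, and was set against the siControl for siMapk14. The siMapk8+9 group received siRNA against MAPK8 and MAPK9, which encode the kinases JNK1 and JNK2, and was set against the siControl for siMapk8+9. Each of the 4 groups held 3 libraries, and the labels place the 2 experiments in different batches. Nothing in the labels says that the 3 libraries of a group were separate cultures, so p-values measure only the spread between these libraries. All libraries come from 1 cell line. The stated purpose was to find the changes downstream of losing either kinase.

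SOX4 and SOX11 are closely related transcription factors that act in progenitors and young neurons and help to switch on neuronal genes. HMGA1 and HMGA2 bind AT-rich DNA and loosen chromatin, and both are abundant in embryonic and stem-like cells. MYC and its relative MYCN drive growth and ribosome production, and MYC is one of the classic reprogramming factors. LIN28B blocks the maturation of let-7, a microRNA family that lowers HMGA2, MYC and LIN28B itself. In zebrafish, Lin28a is induced in Müller glia when they regenerate neurons. MSI1 is an RNA-binding protein of neural stem cells, and FOXP1 is a forkhead transcription factor with roles in neural progenitors and neurons.

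A sequence feature that the members share unequally is the match to the let-7 seed. The seed (bases 2 to 8, in capitals) was the same in the 8 human let-7 microRNAs listed by RefSeq from let-7a to let-7i, of which let-7a is shown.
hsa-let-7a-5p: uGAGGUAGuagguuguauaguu
In the 3′ untranslated region of the main GENCODE transcript, HMGA2 and LIN28B each held 4 matches to this seed, HMGA1 held 1 and the other 6 members held 0. At least 1 match was present in 8.58% of 19102 genes with such a region, and 31 genes held 3 or more. The HMGA sites follow (GRCh38, plus strand) because the count ratio of HMGA1 to HMGA2 shifted in both experiments. Capitals mark the bases that pair with the seed.
HMGA2 site 1, chr12:65963296-65963320: gcgccaacgttcgatttCTACCTCa
HMGA2 site 2, chr12:65964531-65964555: atccccactactcaataCTACCTCt
HMGA2 site 3, chr12:65964943-65964967: aattgacttgcaaagacCTACCTCc
HMGA2 site 4, chr12:65965796-65965820: acaatcaaaacacactaCTACCTCt
HMGA1 site 1, chr6:34245827-34245851: tttcctctgttcacaaaCTACCTCt
A match is a description of the letters and not a measured site of binding. Any part of let-7 in the ratio of HMGA1 to HMGA2 was not tested.

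HMGA1 was the single member that passed the test upward in both experiments, and SOX4 was the member that passed downward in siMapk8+9. Their promoters are shown for that reason, as 250 bases before and 50 after the start given by RefSeq (GRCh38.p14, plus strand, the first of 2 listed starts for HMGA1). Capitals mark the GC box GGGCGG on either strand, a motif bound by SP-family factors.
HMGA1 promoter, chr6:34236623-34236922: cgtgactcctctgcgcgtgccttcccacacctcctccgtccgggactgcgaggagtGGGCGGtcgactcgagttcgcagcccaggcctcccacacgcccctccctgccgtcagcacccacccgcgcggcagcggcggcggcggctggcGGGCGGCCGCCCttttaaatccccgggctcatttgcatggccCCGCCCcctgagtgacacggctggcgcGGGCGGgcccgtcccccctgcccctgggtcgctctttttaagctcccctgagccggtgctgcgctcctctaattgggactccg
SOX4 promoter, chr6:21593501-21593800: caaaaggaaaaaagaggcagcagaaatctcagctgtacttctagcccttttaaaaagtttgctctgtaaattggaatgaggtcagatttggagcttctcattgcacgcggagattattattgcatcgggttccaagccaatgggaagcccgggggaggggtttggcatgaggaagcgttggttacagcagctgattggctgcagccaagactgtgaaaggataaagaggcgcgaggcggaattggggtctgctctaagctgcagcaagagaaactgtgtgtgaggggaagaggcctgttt
The HMGA1 promoter held 5 GC boxes and the SOX4 promoter 0, and 44.95% of 35116 promoters held at least 1. The second HMGA1 start that RefSeq lists held 0 GC boxes and 53.0% G plus C. The G plus C content was 72.0% for the first HMGA1 promoter and 49.3% for SOX4, with a median of 58.7% over all promoters. The E-box CACGTG, the AP-1 motif TGANTCA, the CRE TGACGTCA and TATAAA were also searched on both strands and were found in neither.

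The knockdown libraries differed from their controls in ways that touch every gene. Libraries held 14516406 to 19463837 counts in siMapk14 and 9246294 to 20136463 in siMapk8+9, against 31040067 to 31510571 in the controls. Mitochondrial genes took 32.1% to 45.0% of counts in siMapk14 and 36.9%, 8.93% and 35.0% in siMapk8+9 libraries 1, 2 and 3, against 1.56% to 2.03% in the controls. Library 2 of siMapk8+9 stands apart. The summed level of 16 epithelial markers there was 1969 CPM (counts scaled to a common library total), taken over nuclear-encoded counts, against 145 and 178 in the other siMapk8+9 libraries and 114 to 116 in their siControl. The sum of 15 epithelial markers was 157 to 168 in siMapk14 and 142 to 153 in its siControl. The Müller glia label was checked on the same scale: 15 of 16 listed markers were in each table, and their sum was 8664 to 9269 in siMapk14 and 8667 to 8847 in its siControl, and 10324 to 12959 in siMapk8+9 and 8955 to 9127 in its siControl. VIM and GLUL were abundant, and VIM alone gave 5443 to 6142 of the sum in the 6 control libraries. RLBP1 had 0 counts in all 6 control libraries and RAX at most 0.0324. KCNJ10 and GFAP reached at most 0.0972 and 1.97 in any library. Of 11 Müller glia markers tested as described below, 2 were higher and 5 lower in siMapk14, and 3 were higher and 2 lower in siMapk8+9. The sum of 7 fibroblast markers was 3210 to 3954 in siMapk14 against 13721 to 16007 in its siControl, and 3247 to 7157 in siMapk8+9 against 15857 to 16090 in its siControl. COL1A2 alone gave 12316 to 15176 of this sum in the controls. Of the 7 fibroblast markers, 0 were higher and 6 lower in siMapk14, and 1 was higher and 3 lower in siMapk8+9. The part that these traits play in the values below was not tested. The siRNA targets stood at 43.6% of control for MAPK14 in siMapk14, and at 36.1% for MAPK8 and 35.9% for MAPK9 in siMapk8+9. In siMapk14, MAPK8 and MAPK9 stood at 99.1% and 95.3%. MAPK14 was also lower in siMapk8+9, at 66.1% of control (log2 fold change -0.60 ± 0.17, edgeR adjusted p = 0.0258). That call ended without any 1 of the siControl libraries (adjusted p = 0.0713 to 0.0819). It also ended with correction for transcript length (-0.21, adjusted p = 0.382).

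Of the 9 members, 5 were expressed at levels that could be tested: SOX4, HMGA1, HMGA2, MYC and FOXP1. The other 4 had almost no reads. On the authors' TPM scale, which corrects for transcript length and library depth, the control libraries ranked the 5 members from HMGA1 or MYC at the top to FOXP1 at the bottom. In siControl for siMapk14 the levels were 76.7 ± 7.00 TPM for HMGA1, 44.8 ± 3.82 for MYC, 24.8 ± 2.71 for HMGA2, 8.77 ± 0.11 for SOX4 and 6.58 ± 0.48 for FOXP1 (SD, n = 3). The ranges of neighbours did not overlap in that order. In siControl for siMapk8+9 the order began with MYC at 55.0 ± 4.02 TPM and HMGA1 at 45.1 ± 2.43, followed by HMGA2 at 15.5 ± 1.04, SOX4 at 14.9 ± 0.36 and FOXP1 at 9.70 ± 0.31 (SD, n = 3). There the ranges of HMGA2 and SOX4 overlapped, and those of the other neighbours did not.

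The rank of each member by TPM among all detected genes describes its level without a scaling factor between libraries. It was not corrected for the trend with transcript length described below, and 13339 to 15859 genes were detected by library. Rank and CPM can part. In siMapk8+9, HMGA1 in library 1 was above every control in CPM but not in rank. MYC in library 2 was within the controls in CPM but below them in rank. In siMapk14 libraries 8.97% to 10.6% of detected genes had a higher TPM than HMGA1, against 11.8% to 13.9% in siControl for siMapk14. For MYC the share was 15.5% to 19.2% in siMapk14 and 19.4% to 22.3% in its siControl, and for HMGA2 it was 40.5% to 46.3% in siMapk14 and 30.8% to 35.4% in its siControl. HMGA1 and MYC thus ranked higher, and HMGA2 lower, in every siMapk14 library than in any control library of that experiment. In the siMapk8+9 experiment the share above HMGA1 was 21.2%, 7.09% and 17.9% in siMapk8+9 libraries 1, 2 and 3, against 20.9% to 22.7% in siControl for siMapk8+9. MYC ranked lower than in the controls in every siMapk8+9 library, with 20.5% to 30.5% of genes above it, against 17.3% to 19.6%. SOX4 also ranked lower, with 54.4%, 53.5% and 67.2% above it in siMapk8+9 libraries 1, 2 and 3, against 45.5% to 46.5% in the controls. The TPM values themselves were lower in most knockdown libraries, as when MYC stood at 15.3 to 26.4 TPM in siMapk14 and 41.5 to 48.9 TPM in its siControl, while mitochondrial genes took the shares given above.

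**Figure D1:**
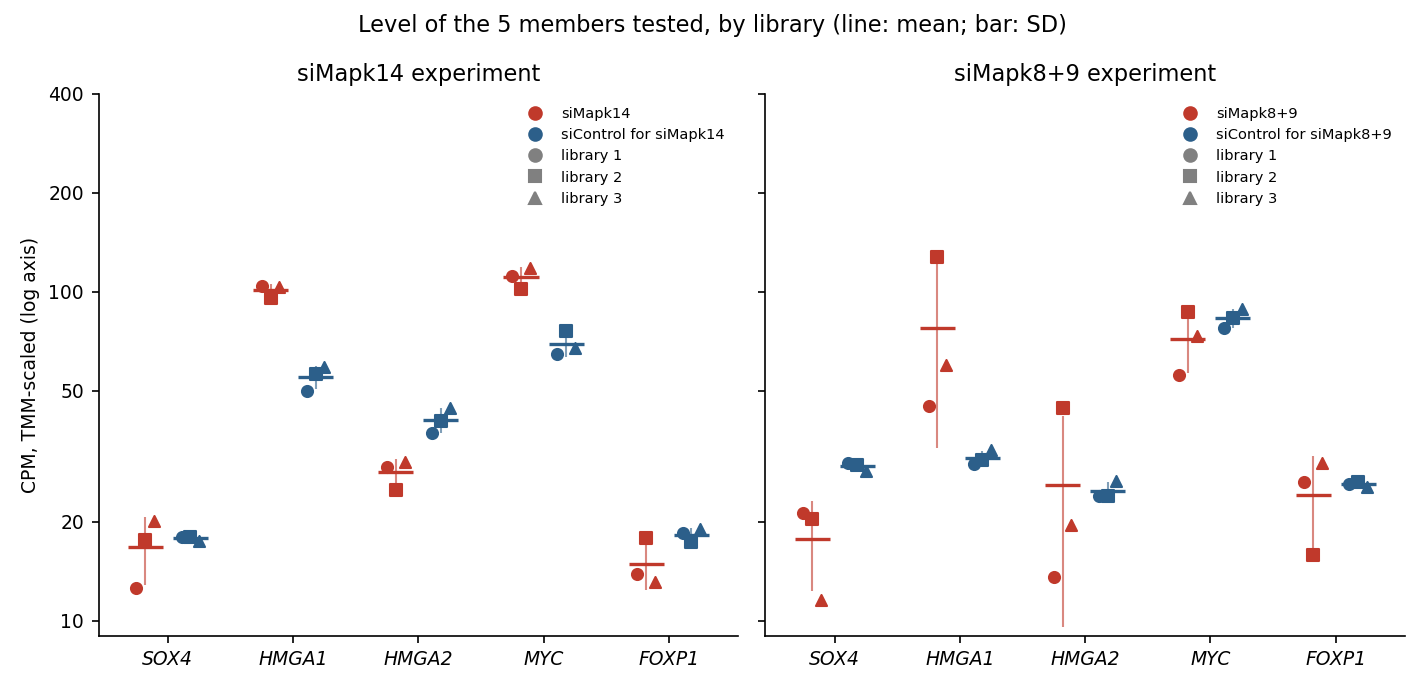
Levels in CPM (scaled by TMM, log axis) of the 5 members tested, in each library; red marks knockdown and blue its own siControl, lines are means and bars SD (n = 3). HMGA1 and MYC stand higher and HMGA2 lower in all 3 siMapk14 libraries than in the controls, and siMapk8+9 library 2 (square) is the highest for HMGA1 and HMGA2.

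The tests below used edgeR's quasi-likelihood F-test on the counts, with Benjamini-Hochberg adjusted p-values over all genes tested and a threshold of 0.05. Levels are CPM scaled by TMM, a factor that sets most genes to no change, and fold changes are log2 values with their standard error. In siMapk14, 2 of the 5 members tested passed upward and 1 downward, where 59.9% of all genes passed (29.4% higher and 30.5% lower). In siMapk8+9, 1 passed upward and 1 downward, where 52.9% of all genes passed (26.8% higher and 26.1% lower). The median log2 fold change of the 5 members was -0.08 in siMapk14 and -0.12 in siMapk8+9, and that of all genes was -0.02 and -0.05. These shares of the members were close to the background in siMapk14. With only 5 members, the lower share in siMapk8+9 is not read as a difference from the background. In bulk libraries, fewer cells with a transcript and less transcript per cell cannot be told apart.

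HMGA1 (gene ID 3159; chromosome 6, 34236873 to 34246231, GRCh38.p14) was higher in both knockdowns. It had 104, 95.8 and 103 CPM in the siMapk14 libraries, against 50.0, 56.0 and 58.8 CPM in siControl for siMapk14. Every knockdown library was above every control library. The log2 fold change was 0.88 ± 0.08 (edgeR adjusted p = 2.51e-05), higher than in 86.9% of all genes tested. In siMapk8+9 it had 44.8, 127 and 60.0 CPM, against 30.0, 30.7 and 33.1 CPM in siControl for siMapk8+9. Again no library overlapped, but library 2 was more than the other knockdown libraries combined. The log2 fold change was 1.32 ± 0.37 (edgeR adjusted p = 0.0217), and 0.75 without library 2 (adjusted p = 0.000991). The call ended without siControl for siMapk8+9 library 1, 2 or 3 (adjusted p = 0.0728, 0.0690 and 0.0626). Groups without overlap were found for 68.6% of all genes in siMapk14 and 67.9% in siMapk8+9, and for 3 and 2 of the members. RefSeq lists 2 other genes whose spans overlap that of HMGA1.

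HMGA2 (gene ID 8091; chromosome 12, 65824460 to 65966291) was lower in siMapk14, the opposite direction to its relative. It had 29.3, 25.0 and 30.3 CPM in siMapk14, against 37.2, 40.4 and 44.3 CPM in its siControl, with no overlap. The log2 fold change was -0.52 ± 0.11 (edgeR adjusted p = 0.00255), a call that ended when all 12 libraries shared 1 estimate of the spread (-0.55, adjusted p = 0.143). In siMapk8+9 the libraries split: 13.6 and 19.5 CPM in libraries 1 and 3 lay below the siControl values of 23.9, 23.9 and 26.6 CPM, and 44.1 CPM in library 2 lay above them. The fold change over all 3 libraries was 0.08 ± 0.40 (adjusted p = 0.868), and without library 2 it turned to -0.58 (adjusted p = 0.0107). Library 2 is the library with the epithelial markers, and whether the 2 are linked was not tested. RefSeq lists 3 other genes whose spans overlap that of HMGA2, and no source used here states the strand of the reads. Whether their exons overlap was not checked, so reads of these genes may be among those counted for HMGA2.

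MYC (gene ID 4609; chromosome 8, 127735434 to 127742951) was higher in siMapk14, and its effects in the 2 knockdowns differed from each other by the test given below. It had 112, 102 and 118 CPM in siMapk14, against 64.7, 75.9 and 67.2 CPM in its siControl. All 3 knockdown libraries were above all 3 controls, and the log2 fold change was 0.68 ± 0.08 (edgeR adjusted p = 0.000154). In siMapk8+9 it had 55.7, 86.4 and 73.1 CPM, against 77.5, 83.0 and 88.2 CPM in siControl for siMapk8+9. Libraries 1 and 3 were below the controls and library 2 was within their range. The log2 fold change was -0.20 ± 0.17 (adjusted p = 0.338), and -0.36 without library 2 (adjusted p = 0.0246). MYCN (gene ID 4613) had 0 counts in all 6 libraries of the siMapk14 experiment, which allows up to 0.0596 CPM in siMapk14 and 0.0321 CPM in its siControl. In the siMapk8+9 experiment it had 0 counts in the knockdown, which allows up to 0.0760 CPM, and 1 count in 1 siControl library. These limits for MYCN are CPM over total counts, without TMM.

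SOX4 (gene ID 6659; chromosome 6, 21593751 to 21598619), a gene with 1 exon, was lower in siMapk8+9. It had 21.2, 20.3 and 11.5 CPM there, against 30.2, 29.7 and 28.5 CPM in siControl for siMapk8+9. The groups did not overlap, and the lowest library was number 3, not the library with the epithelial markers. The log2 fold change was -0.72 ± 0.23 (edgeR adjusted p = 0.0331), and -0.82 without library 2 (adjusted p = 0.00858). The call ended without siControl for siMapk8+9 library 1, 2 or 3 (adjusted p = 0.0962, 0.0914 and 0.0822). In siMapk14, SOX4 had 12.5, 17.6 and 20.1 CPM, against 17.9, 18 and 17.4 CPM in its siControl. The control values fell inside the range of the knockdown, and the log2 fold change was -0.08 ± 0.16 (adjusted p = 0.692). SOX11 (gene ID 6664; chromosome 2, 5692384 to 5701385) was measured in the siMapk8+9 experiment and not analysed in the other. It had 1, 3 and 1 counts in siMapk8+9 and 1, 2 and 2 counts in its siControl. The summed counts gave 95% Poisson intervals of 0.0411 to 0.296 CPM in siMapk8+9 and 0.0172 to 0.124 CPM in its siControl, so no difference was detectable at this depth.

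FOXP1 (gene ID 27086; chromosome 3, 70954708 to 71583978) did not pass in either experiment. It had 13.8, 17.8 and 13.1 CPM in siMapk14, against 18.5, 17.3 and 19.0 CPM in its siControl (log2 fold change -0.30 ± 0.14, edgeR adjusted p = 0.0842). Libraries 1 and 3 were below the controls and library 2 was within them, and without that library the gene passed (-0.45, adjusted p = 0.00567). After correction for length it was at 0.23 (adjusted p = 0.245), above 0. In siMapk8+9 it had 26.3, 15.8 and 30.2 CPM, against 26.0, 26.3 and 25.5 CPM in its siControl (-0.12 ± 0.24, adjusted p = 0.686). Here library 2 was the lowest and library 3 the highest. RefSeq lists 4 genes that overlap FOXP1.

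LIN28B (gene ID 389421; chromosome 6, 104937026 to 105083332) had 0 counts in all 6 libraries of the siMapk14 experiment. In the siMapk8+9 experiment it had 0 counts in the knockdown and 1 count in 1 siControl library, so the limits are those given for MYCN. MSI1 (gene ID 4440; chromosome 12, 120339662 to 120369164) had 0, 3 and 0 counts in siMapk14 and 2, 4 and 2 counts in its siControl. In siMapk8+9 it had 3, 1 and 1 counts, and 1, 0 and 3 counts in its siControl. The Poisson intervals overlapped in both experiments: 0.0123 to 0.174 CPM in siMapk14 against 0.0369 to 0.169 CPM, and 0.0411 to 0.296 CPM in siMapk8+9 against 0.0116 to 0.109 CPM. Intervals and limits cover counting error only, and are CPM over total counts, without the TMM scaling of the levels.

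Whether the 2 knockdowns differed in their effect was tested with all 12 libraries in 1 model, where 15.9% of all genes passed (6.87% higher and 9.02% lower in siMapk14 relative to siMapk8+9). MYC was the 1 member of 5 that passed: the siMapk14 effect exceeded the siMapk8+9 effect by 0.87 ± 0.19 on the log2 scale (edgeR adjusted p = 0.0109). All 3 siMapk14 libraries were above their controls, and 2 of 3 siMapk8+9 libraries were below theirs. The other differences were 0.63 ± 0.29 for SOX4 (adjusted p = 0.164), -0.46 ± 0.39 for HMGA1 (adjusted p = 0.445), -0.64 ± 0.43 for HMGA2 (adjusted p = 0.329) and -0.18 ± 0.28 for FOXP1 (adjusted p = 0.712). These intervals are wide, and a p above the threshold does not show that the knockdowns act alike on these 4 genes. Without siMapk8+9 library 2, the difference for SOX4 was 0.80 (adjusted p = 0.0414) and that for MYC 1.09 (adjusted p = 9.9e-05), while those for HMGA1 and HMGA2 changed sign, to 0.18 (adjusted p = 0.359) and 0.12 (adjusted p = 0.678).

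**Figure D2:**
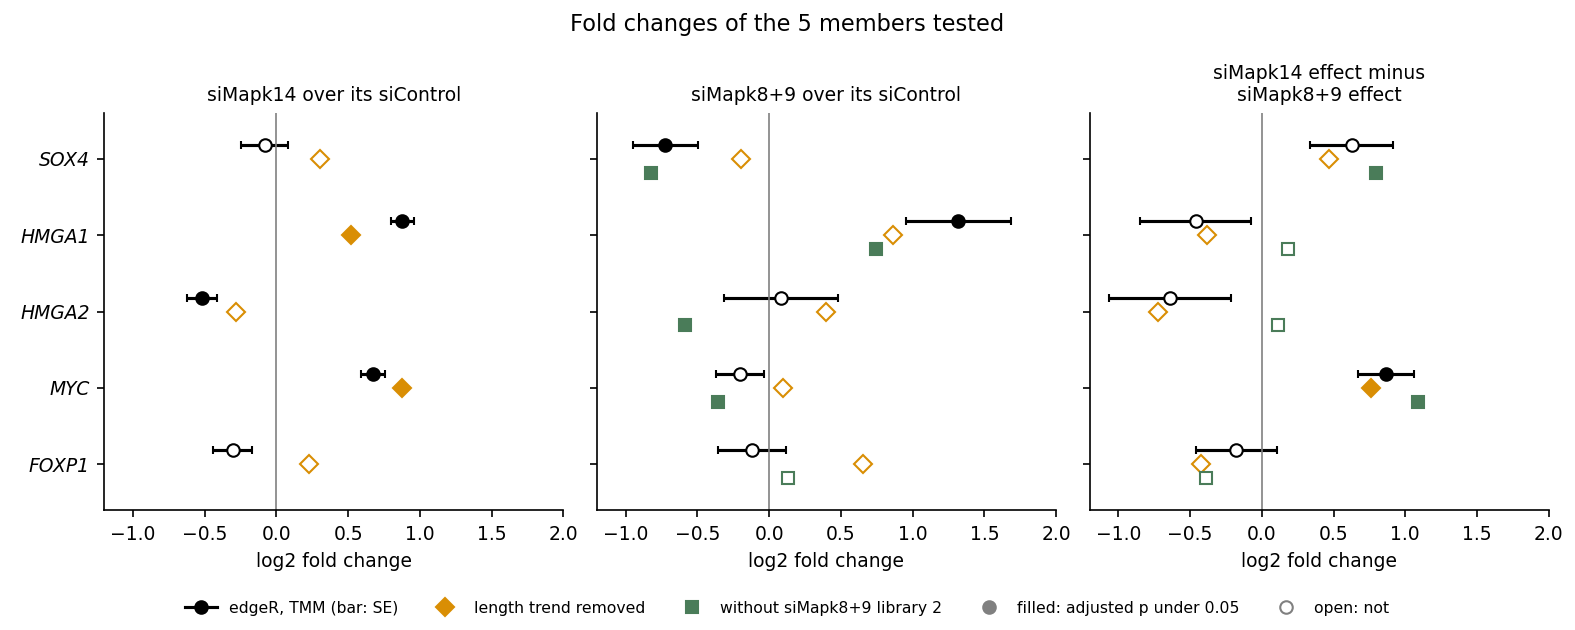
Log2 fold changes of the 5 members, each knockdown over its own siControl and the difference of the 2 effects; circles are the edgeR values with SE, diamonds have the trend with transcript length removed, squares leave out siMapk8+9 library 2, and filled symbols passed an adjusted p of 0.05. MYC is filled in siMapk14 and in the difference in each version drawn, and HMGA2 in siMapk8+9 changes side without library 2.

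Transcript length moved with the fold changes of all genes and therefore stands beside each member. Effective lengths, the authors' counts over their FPKM, were 1620 bases for HMGA1, 3484 for MYC, 3681 for HMGA2, 4574 for SOX4 and 6125 for FOXP1, with a median of 2813 over 14034 genes. With all genes split by length into 5 classes of equal size, the class that holds HMGA1 had in siMapk14 a median log2 fold change of 0.23, that of MYC -0.07, that of HMGA2 and SOX4 -0.33 and that of FOXP1 -0.57. In siMapk8+9 the same medians were 0.28, -0.17, -0.44 and -0.78. Most members lay above the median of their class: HMGA1 and FOXP1 in both experiments, MYC and SOX4 in siMapk14 and HMGA2 in siMapk8+9. The place of HMGA2 in siMapk8+9 rested on library 2, without which HMGA2 was at -0.58. HMGA2 in siMapk14 and SOX4 in siMapk8+9 lay below the median of their class, and MYC in siMapk8+9 lay close to that of its own. The length of MYC was near the upper end of its class, 3487 bases in siMapk14 and 3510 in siMapk8+9. The next longer class, that of HMGA2 and SOX4, had the lower medians given above. With the length trend removed, HMGA1 in siMapk14 was at 0.52 (edgeR adjusted p = 0.00111) and MYC at 0.88 (adjusted p = 6.89e-05), both still called. HMGA2 in siMapk14 was at -0.28 (adjusted p = 0.0517), HMGA1 in siMapk8+9 at 0.86 (adjusted p = 0.118) and SOX4 in siMapk8+9 at -0.19 (adjusted p = 0.479), so these 3 calls ended. SOX4 in siMapk14 changed sign, to 0.30 (adjusted p = 0.152), as did MYC in siMapk8+9, to 0.09 (adjusted p = 0.583). The MYC difference was 0.76 (adjusted p = 0.00492). FOXP1, the longest of the 5, was at 0.65 in siMapk8+9 (adjusted p = 0.127), and at 0.98 (adjusted p = 0.000135) with library 2 left out as well. Under both of these changes HMGA1 in siMapk8+9 was at 0.22 (adjusted p = 0.131), HMGA2 at -0.12 (adjusted p = 0.516), MYC at 0.04 (adjusted p = 0.775) and SOX4 at -0.17 (adjusted p = 0.504). Scaling by total counts, in which the mitochondrial reads enter the library size, set the median of all genes to -0.79 in siMapk14 and -0.71 in siMapk8+9. On that scale MYC was at -0.09 and HMGA1 at 0.11 in siMapk14, neither past the threshold.

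**Figure D3:**
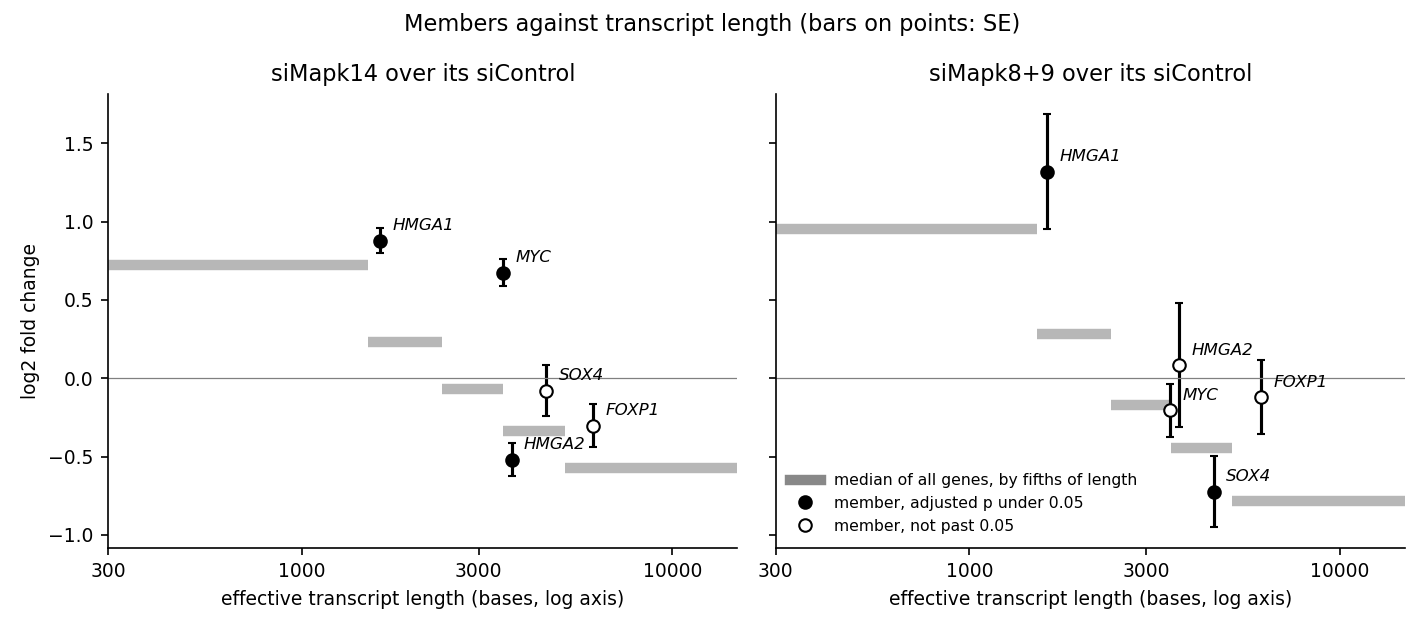
Log2 fold change of the 5 members (points, bars are SE) against effective transcript length (bases, log axis), with the median of all genes in each of 5 length classes as grey bars that run past the axis at both ends. HMGA1 lies above the grey bar of its length class in both experiments, and MYC lies far above it in siMapk14 and close to it in siMapk8+9.

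A ratio of 2 genes' counts within a library needs no scaling between libraries. For HMGA1 over HMGA2 it was 3.54, 3.83 and 3.40 in siMapk14, against 1.34, 1.39 and 1.33 in its siControl. In siMapk8+9 it was 3.29, 2.88 and 3.08, against 1.25, 1.28 and 1.24 in its siControl. Library 2 of siMapk8+9, at 2.88, was the lowest knockdown library on this measure and stayed above every control. Both genes had their highest CPM of the siMapk8+9 experiment in it. The shift of the mean log2 ratio was 1.41 in siMapk14 and 1.29 in siMapk8+9. This pair was picked after its values were seen, so it carries no test. With the length trend removed, the log2 fold change of HMGA1 exceeded that of HMGA2 by 0.80 in siMapk14 and 0.46 in siMapk8+9. Leaving out siMapk8+9 library 2 as well gave 0.34 in siMapk8+9. Of 10 member pairs, the ratios of 6 in siMapk14 and 4 in siMapk8+9 did not overlap between knockdown and control. The share over all pairs of genes was not computed, and the 10 pairs reuse the same members, so these counts are a description only. For the CPM of single genes, the groups did not overlap for 68.6% of all genes in siMapk14 and 67.9% in siMapk8+9. For HMGA2 over MYC, a pair of similar length, the ratio was 0.262, 0.246 and 0.257 in siMapk14, against 0.575, 0.533 and 0.658 in its siControl. In siMapk8+9 it was 0.244, 0.511 and 0.267, against 0.309, 0.288 and 0.302, so the siMapk8+9 libraries lay on both sides of the controls.

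**Figure D4:**
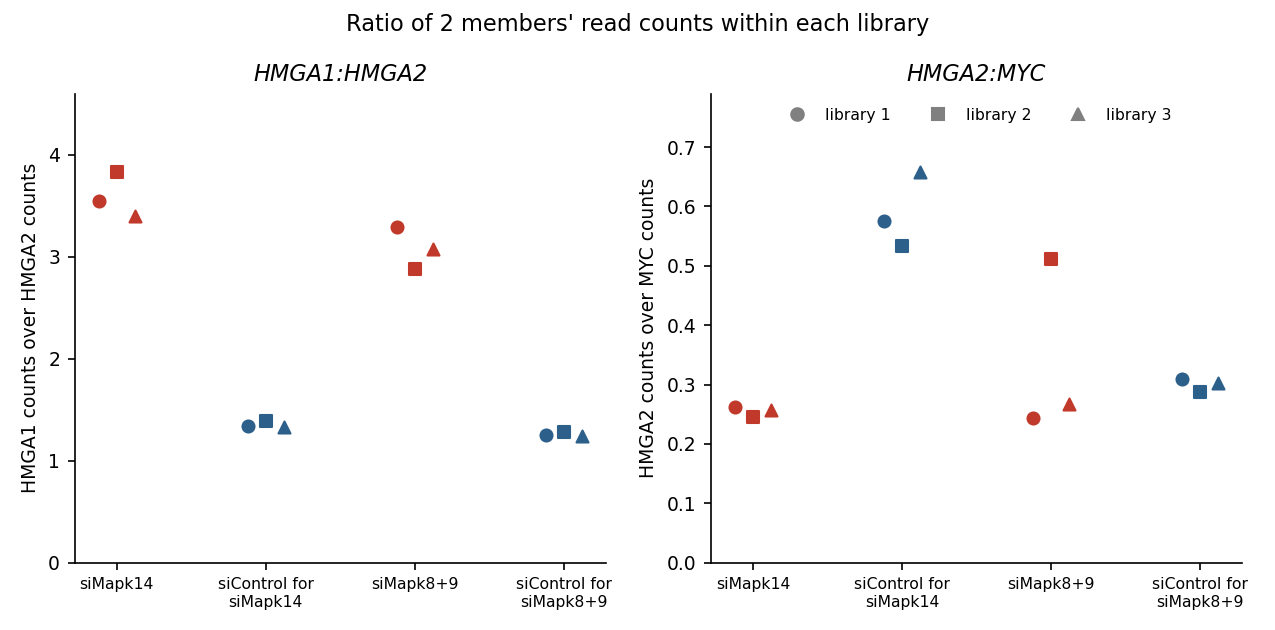
Ratio of the read counts of HMGA1 to HMGA2 and of HMGA2 to MYC in each library, by group, with red for knockdown and blue for siControl. HMGA1 counts per HMGA2 count lie between 2.88 and 3.83 in the 6 knockdown libraries and between 1.24 and 1.39 in the 6 controls.

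The 2 control sets were compared as a description only, since they differ in batch. On the joint scale of all 12 libraries, HMGA1 averaged 56.5 ± 4.67 CPM in siControl for siMapk14 and 30.9 ± 1.54 CPM in siControl for siMapk8+9 (SD, n = 3). HMGA2 averaged 41.8 ± 3.65 CPM in siControl for siMapk14 and 24.5 ± 1.51 CPM in siControl for siMapk8+9. SOX4 averaged 18.3 ± 0.32 CPM in siControl for siMapk14 and 29.1 ± 0.92 CPM in siControl for siMapk8+9, and FOXP1 averaged 18.8 ± 0.87 CPM in siControl for siMapk14 and 25.6 ± 0.48 CPM in siControl for siMapk8+9. MYC averaged 71.2 ± 6.03 CPM in siControl for siMapk14 and 82.0 ± 5.17 CPM in siControl for siMapk8+9 and was the 1 member of the 5 whose control sets overlapped. The control sets did not overlap for 75.3% of all genes tested, so 4 of 5 members is not far from the background. The HMGA genes were higher, and SOX4 and FOXP1 lower, in the control cells of the siMapk14 experiment.

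Genes that work with the members were counted from 11 lists of 200 genes in all, beginning with those around MYC. In siMapk14, 28 of 40 MYC target genes of ribosome and nucleotide synthesis were higher and 8 lower, with a median log2 fold change of 0.41 against -0.02 for all genes. ODC1, the first enzyme of polyamine synthesis, had 194 ± 6.90 CPM in siMapk14 and 83.7 ± 1.3 CPM in its siControl (1.21 ± 0.06, edgeR adjusted p = 2.7e-06). NME1, a nucleoside diphosphate kinase, was at 1.16 ± 0.06. TCOF1, which serves ribosomal RNA transcription, was lower at 34 ± 1.41 against 75.0 ± 3.42 CPM (-1.14 ± 0.07). The higher count fell to 16, with 6 lower, when the length trend was removed, and to 3, with 20 lower, under total counts. In siMapk8+9, 11 of the 40 were higher and 9 lower, and the 3 genes named by smallest adjusted p were lower. With the length trend removed 3 were higher and 17 lower, with a median of -0.32, and without library 2 the counts were 19 and 15. Over all genes, 6938 were called in siMapk8+9, 4898 with the length trend removed and 9554 without library 2. UTP20, a ribosome assembly factor, had 12.7 ± 6.06 CPM in siMapk8+9 and 80.5 ± 2.15 CPM in its siControl (-2.61 ± 0.31). CAD, which starts pyrimidine synthesis, was at -1.62 ± 0.17 and TCOF1 at -1.35 ± 0.15. In the test of the difference, 11 of the 40 were higher in siMapk14 relative to siMapk8+9 and 2 lower, against 20 and 2 with the length trend removed and 25 and 4 without siMapk8+9 library 2. The same settings called 2169, 2459 and 5205 of all genes in the difference.

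The partners of MYC moved in both directions. Of 15 tested genes of the MYC dimer network and its turnover, 3 were higher and 8 lower in siMapk14, and 5 were higher and 5 lower in siMapk8+9. After correction for length the counts were 2 higher and 5 lower in siMapk14 and 3 higher and 3 lower in siMapk8+9. SKP2, a ubiquitin ligase subunit that marks MYC, was lower in both, at -1.04 ± 0.10 in siMapk14 and -1.33 ± 0.14 in siMapk8+9. AURKA, a kinase that stabilises MYCN, fell to 52.7 ± 4.98 CPM in siMapk14, against 99.1 ± 5.81 CPM in its siControl (-0.91 ± 0.09), and MGA, a repressor that dimerises with MAX, was at -0.94 ± 0.11 (-0.25, adjusted p = 0.142, after correction for length). MXI1, which competes with MYC for MAX, had 41.9 ± 10.6 CPM in siMapk8+9 and 7.03 ± 0.32 CPM in its siControl (2.58 ± 0.21, edgeR adjusted p = 0.000415). MLX, a partner of the MXD proteins, was at 1.27 ± 0.13 there.

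Among the relatives of the members, the paralogs in siMapk14 were lower before length was taken into account. Of 4 tested, 3 fell: SOX12 at -0.70 ± 0.16, FOXP4 at -0.73 ± 0.12 and MSI2 at -0.77 ± 0.11, while MYCL at -0.41 ± 0.68 did not pass. After correction for length, SOX12, FOXP4 and MSI2 stood at -0.34, -0.24 and -0.28, with adjusted p of 0.0979, 0.114 and 0.0503. In siMapk8+9, MSI2, the relative of MSI1 that these cells do express, had 16.4 ± 1.98 CPM against 37.1 ± 0.38 CPM (-1.17 ± 0.13, adjusted p = 0.00103). FOXP4 was at -0.81 ± 0.28, a call that ended after correction for length (-0.16, adjusted p = 0.572), without knockdown library 1 or 3 (adjusted p = 0.127 and 0.0927) and without any siControl library (0.107 to 0.109). FOXP2 passed upward, with 1.32, 0.377 and 1.62 CPM in siMapk8+9 against 0.0497, 0 and 0 CPM in its siControl. SOX12 and MYCL did not pass there, at 0.21 ± 0.30 and -0.46 ± 0.63. LIN28A and FOXP2 in siMapk14, and FOXP3 in both experiments, had too few counts to test, and LIN28A was not analysed in siMapk8+9. Of 11 other high mobility group proteins, 6 were higher and 2 lower in siMapk14, and 4 were higher in siMapk8+9 while the others did not pass. After correction for length, 2 were higher and 3 lower in siMapk14, and 2 were higher and 2 lower in siMapk8+9. Without siMapk8+9 library 2 the siMapk8+9 counts were 8 higher and 1 lower. HMGN5, which binds nucleosomes, was higher in both, at 7.17 ± 1.55 against 2.20 ± 0.16 CPM in siMapk14 (1.70 ± 0.23) and 9.88 ± 5.84 against 1.88 ± 0.16 CPM in siMapk8+9 (2.35 ± 0.51). HMGN2 and HMGN3 were at 0.49 and 0.83 in siMapk14, and HMGB2 and HMGN4 at 0.82 and 0.58 in siMapk8+9. With the length trend removed HMGN2, HMGN3, HMGB2 and HMGN4 no longer passed, with HMGN3 at -0.04, and under total counts HMGN2 and HMGN4 were at -0.30 and -0.12.

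Genes that make or use let-7 were mostly lower before transcript length was taken into account. Of 13 tested, 1 was higher and 10 lower in siMapk14, and 2 were higher and 10 lower in siMapk8+9. With the length trend removed the counts were 3 and 3, and 4 and 3. DICER1, which cuts the microRNA hairpin, had 20.0 ± 6.30 CPM in siMapk8+9 and 54.7 ± 1.47 CPM in its siControl (-1.43 ± 0.22), and DROSHA, which acts before it, was at -0.83 ± 0.10; with the length trend removed neither passed (adjusted p = 0.0603 and 0.293). TUT4, which tails the let-7 precursor that LIN28 holds, was at -0.82 ± 0.11 in siMapk14 and -0.35 (adjusted p = 0.0251) with that trend removed, and KHSRP, which promotes let-7 processing, was at -0.73 ± 0.12 and -0.46. AGO2, the slicing Argonaute, was at -0.80 ± 0.09 in siMapk14 and -0.01 with that trend removed, and AGO1 was at -0.73 ± 0.12 in siMapk8+9 and 0.44 (adjusted p = 0.0487) with it removed. Of 19 let-7 target genes other than the members, 2 were higher and 13 lower in siMapk14 and 4 were higher and 7 lower in siMapk8+9. After correction for length, 2 were higher and 5 lower in siMapk14, and 4 were higher and 3 lower in siMapk8+9, where the median was 0.17, against -0.36 without the correction. CDK6, a kinase of the G1 phase, was lower in both, with 52.0 ± 4.55 against 147 ± 1.96 CPM in siMapk14 (-1.50 ± 0.07) and 72.3 ± 13.1 against 315 ± 3.08 CPM in siMapk8+9 (-2.13 ± 0.15). CCND1, the gene of cyclin D1, and RRM2, a ribonucleotide reductase subunit, were at -1.11 ± 0.12 and -0.73 ± 0.05 in siMapk14. In siMapk8+9, FNDC3A was at -1.38 ± 0.21 and CDC34, a ubiquitin-conjugating enzyme, at 1.4 ± 0.16.

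Of 5 Musashi target genes, 1 was higher and 3 lower in siMapk14, and 2 were higher and 2 lower in siMapk8+9. Corrected for length, 3 were higher and 1 lower in each experiment, and the median in siMapk14 was 0.28, against -0.30 without the correction. CDKN1A, the gene of the cell cycle inhibitor p21, was higher in both, with 101 ± 7.44 against 51.8 ± 5.35 CPM in siMapk14 (0.96 ± 0.09) and 115 ± 41.9 against 14.1 ± 0.31 CPM in siMapk8+9 (3.03 ± 0.27). NUMBL, a Notch antagonist like NUMB, was lower in both, at -0.54 ± 0.09 and -0.83 ± 0.13. APC, a brake on Wnt signalling, was at -0.44 ± 0.08 in siMapk14 and turned to 0.28 with the length trend removed. In siMapk8+9 APC was at -1.19 ± 0.14, and at -0.14 (adjusted p = 0.453) with that trend removed.

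Most genes of the neurogenic programme in which SOX4 and SOX11 act had too few reads to test. Of 30 proneural and retinal transcription factors, 7 could be tested in siMapk14 and 8 in siMapk8+9. In siMapk14, PAX6, a regulator of retinal progenitors, had 11.2 ± 0.72 CPM against 8.00 ± 0.63 CPM (0.48 ± 0.14, adjusted p = 0.0167), and HES6, which promotes neuronal differentiation, had 3.91 ± 1.55 against 1.47 ± 0.23 CPM (1.39 ± 0.38). Neither passed with the length trend removed. PAX6 did not pass without siControl for siMapk14 library 2 or 3 (adjusted p = 0.104 and 0.0648), nor HES6 without library 3 of that siControl (0.0541), and under total counts PAX6 was at -0.29. In siMapk8+9 the single call was POU4F1, a factor of ganglion cells, at 0, 0.235 and 0.487 CPM against 2.26, 1.89 and 2.17 CPM (-3.14 ± 0.64, adjusted p = 0.00691). Without library 2, 2 of the 8 were lower. Summed over 3 libraries, ATOH7 had 4 counts in siMapk14 and 4 in its siControl, and NEUROD1 had 19 counts in siMapk8+9 and 2 in its siControl.

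Early neuronal genes moved in both directions. Of 15 tested, 2 were higher and 5 lower in siMapk14, and 5 were higher and 4 lower in siMapk8+9. The counts corrected for length were 1 higher and 6 lower in siMapk14, and 3 were higher and 2 lower in siMapk8+9. UCHL1, a neuronal ubiquitin hydrolase, was higher in both, with 273 ± 28.1 against 116 ± 4.04 CPM in siMapk14 (1.24 ± 0.08) and 160 ± 56.2 against 48.2 ± 1.25 CPM in siMapk8+9 (1.73 ± 0.26). DPYSL3, a regulator of axon growth, was lower in both, at -0.84 ± 0.07 and -1.27 ± 0.10. NCAM1, an adhesion molecule, was at -0.89 ± 0.11 in siMapk14, and TUBB2B, a tubulin of young neurons, at 1.50 ± 0.21 in siMapk8+9. Removing the length trend kept the direction and the call of each of these 4 genes.

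Of 13 tested repressors of neurogenesis and glial factors, 2 were higher and 6 lower in siMapk14, and 3 were higher and 3 lower in siMapk8+9, or 4 and 5 without library 2. NFIX, a nuclear factor I protein whose family helps keep Müller glia quiescent in mouse, was lower in both, with 29.6 ± 3.33 against 89.8 ± 4.86 CPM in siMapk14 (-1.60 ± 0.10) and 25.8 ± 9.54 against 117 ± 6.35 CPM in siMapk8+9 (-2.15 ± 0.25). HES1, an effector of Notch, was higher in siMapk14 at 21.3 ± 4.28 against 6.91 ± 0.26 CPM (1.62 ± 0.16). REST, a repressor of neuronal genes, was at -0.60 ± 0.07 in siMapk14 and -0.03 with the length trend removed. In siMapk8+9, ID1 was at -0.79 ± 0.15 and ID2 at 0.86 ± 0.15, and ID2 turned to -0.04 with the length trend removed. Of 8 tested pluripotency factors, 1 was higher and 3 lower in siMapk14, and 2 were higher and 1 lower in siMapk8+9, or 3 and 2 without library 2. KLF4 was lower in siMapk14 (-0.89 ± 0.13) and higher in siMapk8+9 (0.70 ± 0.17). KLF2 and DNMT3B were at -0.69 ± 0.16 and -0.68 ± 0.15 in siMapk14. SOX2, which also marks Müller glia, had 5.40 ± 2.08 CPM in siMapk8+9 and 15.8 ± 0.91 CPM in its siControl (-1.50 ± 0.27), and KLF5, a gene that epithelia express, was at 1.49 ± 0.49, with its highest value of 46.2 CPM in library 2. KLF5 was at 0.67 without library 2 (adjusted p = 0.0246), and did not pass without knockdown library 3 (0.0592) or any siControl library (0.1000 to 0.109). KLF4 in siMapk8+9 did not pass without siControl library 2 or 3 (adjusted p = 0.0597 and 0.0513).

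**Figure D5:**
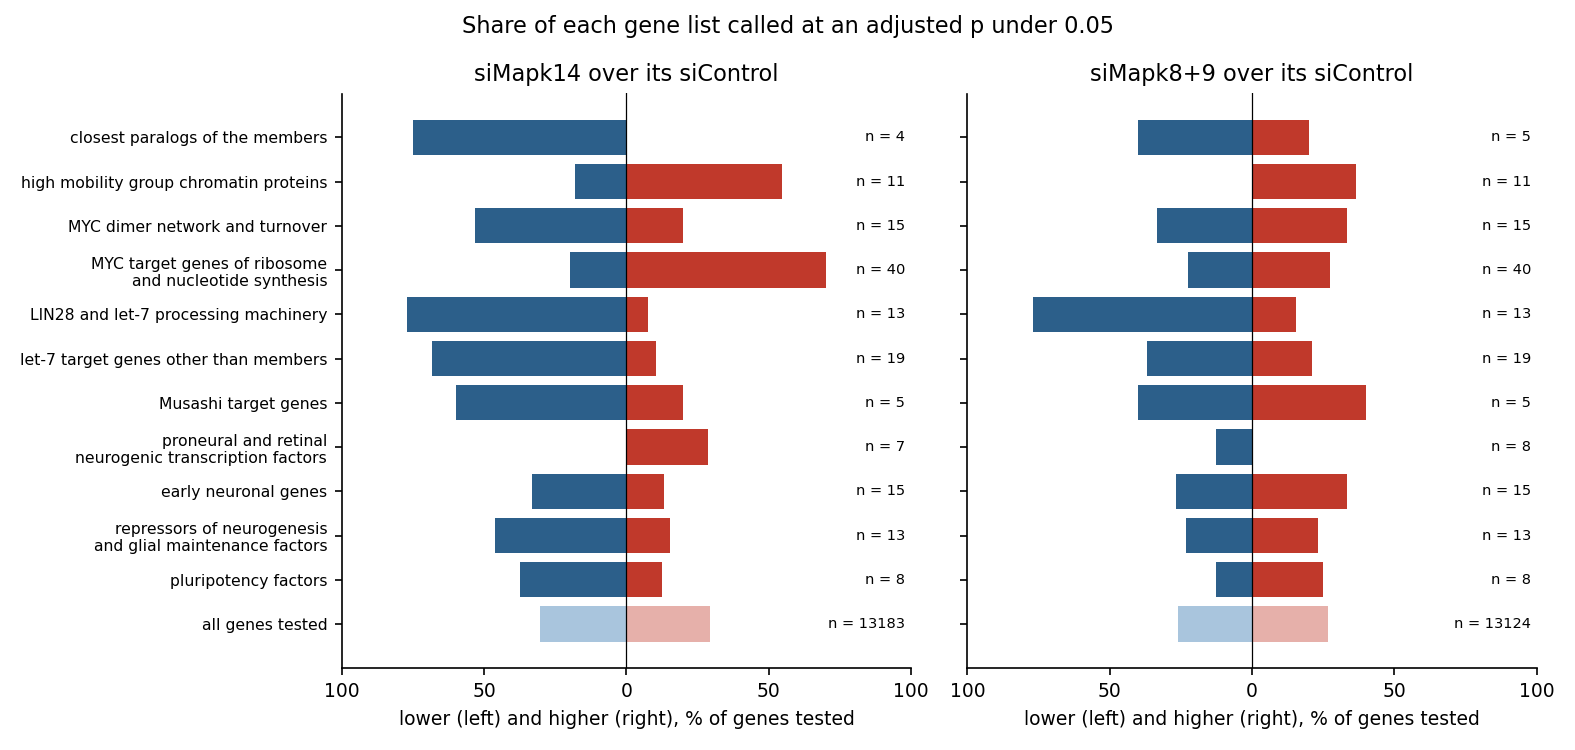
Share of the tested genes of each list that were called higher (red, right) or lower (blue, left) at an adjusted p under 0.05, with all genes tested in paler bars at the bottom. In siMapk14, MYC target genes lean to the right and the let-7 machinery to the left, and all genes split at 29.4% and 30.5%.

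The genes whose levels over the 12 libraries were most like each member were sought among 9142 genes with a mean of at least 10 CPM, as a description. They were METTL13 and RAP2A for SOX4 (Pearson r of 0.98 and 0.95), SFT2D1 and HSPA5 for HMGA1 (0.98 for both) and SLC7A5 and MYDGF for HMGA2 (0.96 and 0.95). For FOXP1 they were FAM98A and CSE1L (0.97 for both), and for MYC they were YTHDF1 and TMEM203 (0.93 and 0.92). A correlation above 0.9 was shared with 45 genes for HMGA1 and 49 for HMGA2, 21 for FOXP1, 20 for SOX4 and 2 for MYC. Libraries of a group share batch, depth and the trend with length.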

How the data were processed

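Bulk RNA sequencing of 12 libraries in 4 groups of 3 was analysed. The authors deposited 2 tables with expected counts per gene (not normalized; 85.5% to 91.8% of values per library whole as written), FPKM and TPM. The FPKM values deposited by the authors, scaled by length and depth, served to derive effective length (count at least 10, FPKM at least 0.2) and to check the order of members. The TPM values deposited by the authors set the order between members. The submitters' processing notes give RSEM 1.3.1, the build GRCh38.p14, Bowtie2 2.3.4.3 and DESeq2 1.4.5 without roles. Per the labels' protocols, polyadenylated RNA was captured and cDNA primed with random hexamers. Strand and annotation are not given in the sources used here.

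Expected counts were rounded and fitted in edgeR 4.0.16 (R 4.3.3): filterByExpr (minimum count 10, total 15), TMM, robust quasi-likelihood F-test, each experiment alone, 13183 and 13124 genes, Benjamini-Hochberg adjustment. The fit was tested on simulated counts with few changed genes, no trend with length and no mitochondrial shift. That setting is simpler than these data, so it does not show how the fit performs under those traits. A single count was worth 0.0317 to 0.108 CPM by library, over total counts without TMM, and 0 counts allow up to 3. Same-numbered libraries did not deviate together (correlations -0.0252 to 0.0401), so no pairing was used, and all pairs of libraries differed by more than sampling noise.

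Members and gene lists were chosen with earlier results of these data known. Named genes are the members, the siRNA targets, all tested paralogs, for each list and experiment the called genes with the lowest adjusted p (at most 3), and the 2 genes most like each member. Alternatives were RLE, upper-quartile and total-count scaling, DESeq2 1.42.0, limma-voom (limma 3.58.1), no filter, a filter at 1 mean CPM, a replicate block, 1 fit of all libraries, mitochondrial genes left out, removal of the length trend (lowess, span 0.3) and each library left out. Figures used matplotlib 3.10.9. Single-cell data named in the series were not analysed here.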

Additional observations from a re-analysis of the deposited data

Results flagged for a closer look

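MYC is listed here because its effects in the 2 knockdowns differed by the test of the difference itself. The siMapk14 effect minus the siMapk8+9 effect was 0.87 ± 0.19 on the log2 scale (edgeR quasi-likelihood test, adjusted p = 0.0109), and MYC was higher than its controls in 3 of 3 siMapk14 libraries and lower in 2 of 3 siMapk8+9 libraries. The difference passed in 22 of 23 alternatives, with values from 0.72 to 1.09, and did not pass under total counts (0.74, adjusted p = 0.295). The experiments differ in batch, each with its own control.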

How the results depend on the processing

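HMGA1 and MYC in siMapk14 kept their direction and call in 16 of 17 alternatives each. Under total counts MYC was at -0.091, and 0 members were higher and 3 lower in siMapk14, 0 higher and 2 lower in siMapk8+9, and 0 higher in the difference. With the length trend removed, 0 members were lower in siMapk14, and 0 were higher and 0 lower in siMapk8+9. The number lower in siMapk14 was 2 with limma-voom and 0 in 1 fit of all 12 libraries. Leaving out each library gave 1 to 2 members lower in siMapk14, 0 to 1 higher and 0 to 3 lower in siMapk8+9, and 1 to 2 higher in the difference. In the same runs 4509 to 9554 genes were called in siMapk8+9 and 1266 to 5205 in the difference, the highest counts being those without siMapk8+9 library 2, and HMGA2 in siMapk8+9 ranged between -0.58 (without library 2) and 0.38 (without library 1). The difference gave 1028 genes under total counts and 1179 with the replicate block, which changed the call of no member. The cause of these shifts was not tested.

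Removal of the length trend together with siMapk8+9 library 2 was chosen after seeing the data. It gave 0 members lower in siMapk8+9, 1 lower in the difference and 4665 genes in the difference, with FOXP1 at 0.98, AGO1 at 0.58 and ID2 at -0.18 in siMapk8+9. Other values that changed sign, and passed the threshold before or after, were, with the length trend removed, APC at 0.28, HMGN3 at -0.043, MAPK8 at 0.48 and MAPK9 at 0.25 in siMapk14, and AGO1 at 0.44 and ID2 at -0.035 in siMapk8+9. Under total counts they were HMGN2 at -0.30 and PAX6 at -0.29 in siMapk14 and HMGN4 at -0.12 in siMapk8+9. Members that changed sign and passed under neither setting were, with the length trend removed, SOX4 at 0.30 and FOXP1 at 0.23 in siMapk14 and MYC at 0.095 and FOXP1 at 0.65 in siMapk8+9. HMGA2 in siMapk8+9 was at -0.45 under total counts, -0.10 with the replicate block and -0.12 with length and library 2 taken out. Leaving out 1 library turned SOX4 in siMapk14 (0.082 without siMapk14 library 1), FOXP1 in siMapk8+9 (0.13 without library 2) and the differences for HMGA1 (0.18) and HMGA2 (0.12) without siMapk8+9 library 2 and FOXP1 (0.024) without siMapk8+9 library 3. With length and library 2 taken out, MYC in siMapk8+9 was at 0.041 and the HMGA1 difference at 0.24. Over nuclear-encoded counts alone, levels in siMapk14 and its siControl were 21.1 and 23.7 CPM for SOX4, 127 and 73.2 for HMGA1, 35.7 and 54.2 for HMGA2, 139.5 and 92.3 for MYC, and 18.8 and 24.3 for FOXP1. In siMapk8+9 and its siControl they were 19.4 and 38.4 for SOX4, 85.6 and 40.8 for HMGA1, and 28.6 and 32.4 for HMGA2. For MYC they were 78.3 and 108, and for FOXP1 25.9 and 33.8. Depth limits SOX11, MYCN, LIN28B and MSI1 to the intervals given.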
